A study of Mus musculus with 24 samples.

Results

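The mitochondrial trifunctional protein genes Hadha and Hadhb were described here together with the matrix dehydrogenase gene Hadh, the short-chain hydratase gene Echs1 and the matrix thiolase gene Acaa2. These 5 of the 18193 measured mouse genes were chosen by name, for their place in one segment of a pathway, and all 11 probe sets annotated to them, of 45037 probe sets in all, were read on all 24 arrays. A probe set is a group of short array probes that reports one transcript. The series compared mice lacking the nuclear receptor PPARα with wild-type mice, and asked how its loss changes transcripts in liver and heart of each sex. Ppara knockout (KO) and wild-type (WT) mice were of the SV129 strain, 10 to 12 weeks old, and were killed at zeitgeber time 14. In each tissue, pools 10 to 12 were KO females, pools 7 to 9 WT females, pools 4 to 6 KO males and pools 1 to 3 WT males. Each array held RNA from 4 animals pooled, so the spread over the 3 pools of a group is one of averages over animals. The labels name no treatment and do not describe the Ppara allele.

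Mitochondrial β-oxidation shortens an acyl-CoA through repeated cycles of dehydrogenation, hydration, a further dehydrogenation and thiolysis. Acyl-CoA dehydrogenases start each cycle. For long chains the later steps run on the trifunctional protein of the inner membrane, in which HADHA carries the hydratase and hydroxyacyl-CoA dehydrogenase activities and HADHB the thiolase. For shorter chains the same steps are run by separate matrix enzymes, which are ECHS1 (hydratase), HADH (hydroxyacyl-CoA dehydrogenase) and ACAA2 (thiolase). PPARα is a ligand-activated transcription factor that binds DNA with RXR, usually at repeats of the hexamer AGGTCA, and it is known for controlling fatty acid oxidation genes in liver and heart.

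Values are log2 intensities, ± is the SD over 3 pools, and a change is the KO minus WT difference of log2 values. Calls were made with limma, which fits a linear model to every gene, and a gene passed where its p adjusted over all genes was under 0.05. Liver and heart values had different array medians, about 2.45 and 3.03, so levels were not compared across tissues. The Ppara probe set itself read lower in every KO pool than in any WT pool of its group. It averaged 7.43 ± 0.16 in female KO livers against 8.47 ± 0.22 in female WT livers, and 5.56 ± 0.24 in female KO hearts against 7.09 ± 0.16 in female WT hearts. In males it averaged 7.37 ± 0.12 in KO livers against 8.49 ± 0.18 in WT livers, and 5.65 ± 0.41 in KO hearts against 6.91 ± 0.17 in WT hearts. No source used here says where its probes lie relative to the deleted part. The hepatocyte marker list had a median level of 12.17 to 12.68 in livers and at most 3.74 in hearts, and the cardiomyocyte list 12.99 to 13.23 in hearts and at most 2.37 in livers, as the tissue labels state. Among hearts, the skeletal muscle list stood at 4.24 in male KO pool 4 and at no more than 3.44 in any other pool, and the summed level of the hepatocyte list reached 8.42 in female KO pool 10, against at most 6.66 in the other 3 heart groups. Results for hearts are therefore also given without pools 4 and 10.

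Loss of PPARα went with lower Hadha, Hadhb and Acaa2 in both tissues, with a smaller reduction of Hadh in heart, and with no detected change of Echs1. In KO against WT livers, 3 of the 5 genes fell in females, where 0.451% of all genes fell, and 2 of 5 fell in males, where 0.434% of all genes fell. In hearts 3 of 5 fell in females and 3 of 5 in males, against 0.412% and 0.319% of all genes. No member rose in any of these comparisons, in which 0.363%, 0.17%, 0.121% and 0.0824% of all genes rose. The median change over the 5 genes was -0.43 in female livers, -0.28 in male livers, -0.58 in female hearts and -0.65 in male hearts, while the median over all genes lay within 0.011 of 0 in each. In bulk tissue, fewer cells of a type and less RNA per cell cannot be told apart.

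**Figure D1:**
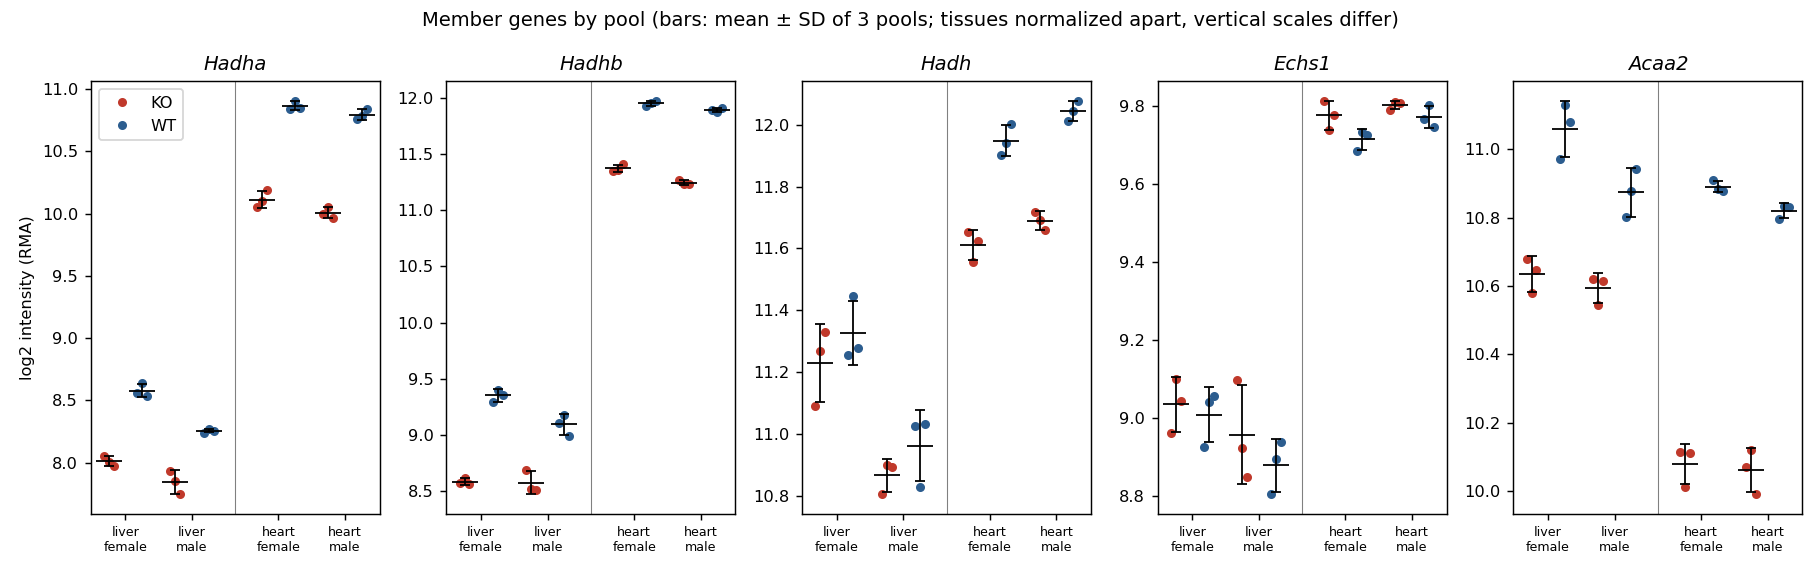
Log2 intensity of the probe set that represents each of the 5 genes, by pool (points), with bars for the mean ± SD of 3 pools and KO left of WT for each sex and tissue. KO points of Hadha, Hadhb and Acaa2 lie below the WT points in all 4 pairs of groups, those of Hadh only in hearts, and those of Echs1 in none.

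Hadha encodes the α subunit, with the hydratase and long-chain dehydrogenase sites. Its level was 10.05, 10.10 and 10.19 in the female KO hearts, against 10.84, 10.91 and 10.85 in the female WT hearts. In male hearts it was 10.00, 10.05 and 9.97 in KO pools against 10.76, 10.78 and 10.84 in WT pools. Each KO heart thus lay below each WT heart of its sex by more than the spread within groups. The change was -0.75 in females (1.69-fold lower, adjusted p = 5.34e-05, limma) and -0.79 in males (1.73-fold lower, adjusted p = 3.92e-05, limma), each with an SE of 0.08. In female livers Hadha was at 8.06, 8.003 and 7.97 in KO pools against 8.56, 8.64 and 8.53 in WT pools, a change of -0.57 (SE 0.07, adjusted p = 0.00137, limma). In male livers it was at 7.93, 7.85 and 7.75 in KO pools against 8.24, 8.27 and 8.26 in WT pools, a change of -0.41 (SE 0.07, adjusted p = 0.0205, limma). The groups did not overlap in either sex. The male liver call was lost when the male arrays were fitted alone or when any of pools 1, 2, 3, 5 and 6 was left out, with adjusted p from 0.00648 to 0.0989 in limma over its alternatives and changes of -0.45 to -0.36. Pooled over the sexes, the call in liver held under all 19 alternatives.

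Hadhb encodes the β subunit with the long-chain thiolase site. Its main probe set read 8.58, 8.62 and 8.56 in female KO livers against 9.29, 9.40 and 9.36 in female WT livers, a gap far wider than either group's range. In male livers it read 8.69, 8.52 and 8.51 in KO pools against 9.11, 9.18 and 8.99 in WT pools. The change was -0.77 in females (1.70-fold lower, SE 0.08, adjusted p = 0.000277, limma) and -0.52 in males (1.43-fold lower, SE 0.08, adjusted p = 0.00733, limma). The male value lost its call without pool 2 (adjusted p = 0.0514) or pool 5 (adjusted p = 0.0502), within a range of 0.00134 to 0.0514 over its limma alternatives. In hearts Hadhb read 11.35, 11.35 and 11.41 in female KO pools against 11.93, 11.95 and 11.97 in female WT pools, and 11.27, 11.23 and 11.23 in male KO pools against 11.89, 11.87 and 11.91 in male WT pools. KO and WT hearts were separated in each sex, with changes of -0.58 and -0.65 (adjusted p = 0.000389 and 0.000152, limma).

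The promoters of Hadha and Hadhb lie head to head on mouse chromosome 5, with 272 bases between their RefSeq start sites, so the windows of 250 bases before to 50 after each start share 228 bases. RefSeq sequences of build GRCm38.p6 are shown for Hadhb, which takes in most of the span that the pair shares, for Hadh, and for Echs1 as the member with no detected change. Capitals mark the hexamer AGGTCA and the GC box GGGCGG on either strand.
Hadhb: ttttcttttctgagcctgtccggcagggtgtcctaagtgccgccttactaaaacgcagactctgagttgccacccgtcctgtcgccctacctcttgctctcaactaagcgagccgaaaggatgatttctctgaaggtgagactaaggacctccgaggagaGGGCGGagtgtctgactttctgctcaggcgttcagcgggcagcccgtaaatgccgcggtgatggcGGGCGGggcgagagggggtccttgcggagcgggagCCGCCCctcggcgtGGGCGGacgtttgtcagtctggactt
Hadh: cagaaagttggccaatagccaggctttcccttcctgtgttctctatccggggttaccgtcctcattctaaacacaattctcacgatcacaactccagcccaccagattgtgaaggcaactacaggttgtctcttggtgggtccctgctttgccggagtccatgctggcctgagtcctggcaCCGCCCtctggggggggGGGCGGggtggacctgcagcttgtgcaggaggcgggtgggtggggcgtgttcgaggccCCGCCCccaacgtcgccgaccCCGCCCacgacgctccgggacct
Echs1: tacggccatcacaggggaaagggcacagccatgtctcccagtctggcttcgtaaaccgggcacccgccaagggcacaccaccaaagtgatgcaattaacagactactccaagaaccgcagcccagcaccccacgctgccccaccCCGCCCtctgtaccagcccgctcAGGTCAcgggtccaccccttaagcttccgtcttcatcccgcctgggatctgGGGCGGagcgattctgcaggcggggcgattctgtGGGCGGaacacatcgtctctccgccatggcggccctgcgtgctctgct
These are chr5:30155003-30155302 on the plus strand, chr3:131272052-131272351 on the minus strand and chr7:140116372-140116671 on the minus strand. The AGGTCA hexamer occurred in the Echs1 window only, at position -83 from the start site, and in none of the Hadha, Hadhb and Hadh windows, whereas 16.3% of 32851 mouse windows held it. GGGCGG occurred 1 time in the Hadha window, 4 times in that of Hadhb, 4 times in that of Hadh and 3 times in that of Echs1, and in 35.7% of all windows at least once. The direct repeat AGGTCANAGGTCA, the form PPARα and RXR are known to bind, was matched at best with 4, 4, 3 and 2 mismatches in the windows of Hadha, Hadhb, Hadh and Echs1. Of all windows, 3.86% held a match with up to 2 mismatches and 24.6% with up to 3. A match describes the letters of the window and not binding, and elements outside these windows were not searched. A window for Acaa2 is not shown.

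Acaa2 encodes the matrix thiolase that releases acetyl-CoA from medium chains. In female hearts it was at 10.11, 10.01 and 10.11 in KO pools against 10.91, 10.88 and 10.88 in WT pools, and in male hearts at 10.07, 10.12 and 9.99 in KO pools against 10.80, 10.83 and 10.83 in WT pools. The separation was again complete. The change was -0.81 in female hearts (1.76-fold lower, SE 0.07, adjusted p = 2.20e-05, limma) and -0.76 in male hearts (1.69-fold lower, SE 0.07, adjusted p = 4.29e-05, limma). In livers the reduction was smaller. Acaa2 was at 10.68, 10.58 and 10.65 in female KO livers against 10.97, 11.13 and 11.08 in female WT livers, a change of -0.43 (SE 0.08, adjusted p = 0.0165, limma). The female call was lost with the female arrays alone (adjusted p = 0.157) and without pool 8, 9 or 11, in a range of 0.000452 to 0.157 over its limma alternatives. In males it was at 10.62, 10.54 and 10.62 in KO livers against 10.80, 10.88 and 10.94 in WT livers. The male groups did not overlap, but the change of -0.28 did not pass over all genes (adjusted p = 0.197, limma). It passed with a trended and robust variance (adjusted p = 0.0397) and with the mean of its 3 probe sets (-0.37, adjusted p = 0.0112), in a range of 0.0112 to 0.495 over the limma alternatives. Over both sexes Acaa2 fell by 0.35 in liver (SE 0.05, adjusted p = 0.00302, limma), where 0.808% of all genes fell.

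Hadh encodes the matrix hydroxyacyl-CoA dehydrogenase for medium and short chains. In female hearts it was at 11.65, 11.56 and 11.63 in KO pools against 11.90, 11.94 and 12.00 in WT pools, and in male hearts at 11.72, 11.69 and 11.66 in KO pools against 12.01, 12.05 and 12.08 in WT pools. No KO heart reached a WT heart of its sex, yet the changes of -0.34 and -0.35 missed the threshold within each sex (adjusted p = 0.0635 and 0.0562, limma). Each passed with a trended and robust variance (adjusted p = 2.04e-05 in females and 9.38e-06 in males) and when the adjustment covered only genes above the median level (adjusted p = 0.0362 in females and 0.0309 in males), in ranges of 2.04e-05 to 0.283 and 9.38e-06 to 0.235 over the limma alternatives. Over both sexes Hadh fell by 0.35 in heart (SE 0.05, adjusted p = 0.00195, limma), which made 4 of 5 members lower there against 0.594% of all genes. In livers the groups overlapped on its main probe set. Hadh was at 11.09, 11.27 and 11.33 in female KO livers against 11.26, 11.45 and 11.28 in female WT livers, and at 10.81, 10.90 and 10.89 in male KO livers against 11.03, 10.83 and 11.03 in male WT livers. The liver change over both sexes was -0.10, with a 95% interval of -0.24 to 0.04 (adjusted p = 0.686, limma).

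Echs1 encodes the short-chain hydratase, which also acts in valine breakdown. In livers it was at 8.96, 9.10 and 9.04 in female KO pools against 8.93, 9.04 and 9.06 in female WT pools, and at 9.10, 8.92 and 8.85 in male KO pools against 8.80, 8.89 and 8.94 in male WT pools. In hearts it was at 9.81, 9.74 and 9.78 in female KO pools against 9.68, 9.73 and 9.73 in female WT pools, and at 9.79, 9.81 and 9.81 in male KO pools against 9.77, 9.80 and 9.75 in male WT pools. The female heart KO pools lay above the WT pools, as they did for 5.57% of all genes, and the other 3 pairs of groups overlapped. No change passed in limma. Over both sexes the change was 0.05 in liver (95% interval -0.08 to 0.18) and 0.05 in heart (-0.06 to 0.15).

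In all, KO pools lay wholly below WT pools for 3 of 5 members in female livers and 3 in male livers, and for 4 in female hearts and 4 in male hearts. Over all genes that held for 5.21%, 8.09%, 6.58% and 5.46% of genes in the same order.

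**Figure D2:**
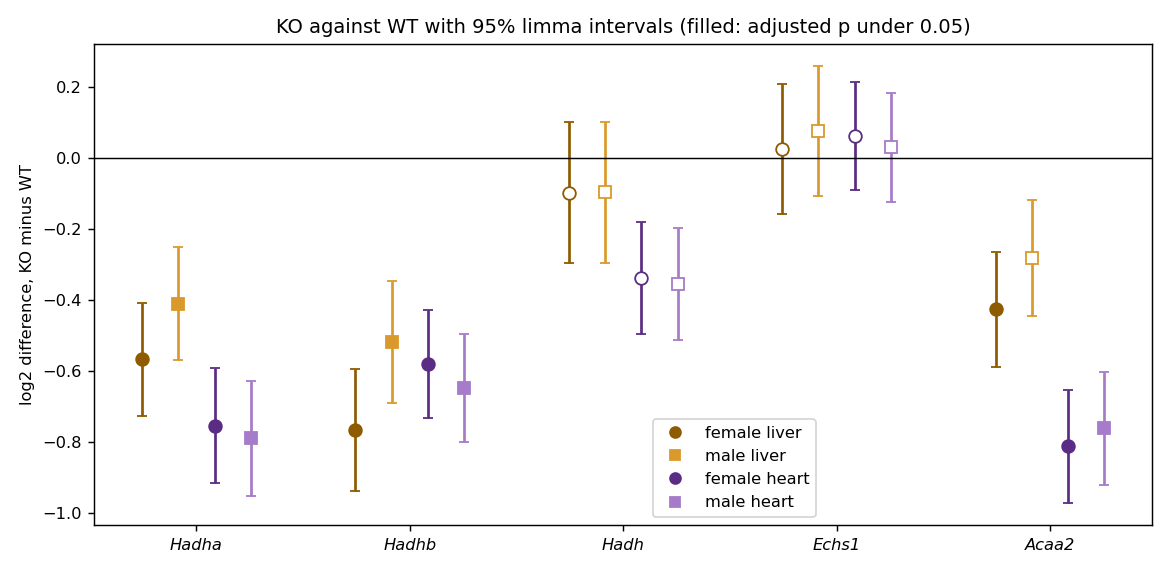
KO minus WT differences of log2 intensity for the 5 genes in each tissue and sex, with 95% intervals from the limma fit and filled symbols where the adjusted p was under 0.05. Intervals of Hadha, Hadhb and Acaa2 lie below 0 in all 4 comparisons, those of Hadh in heart only, and those of Echs1 all include 0.

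Some sums of marker lists and a quality measure did not overlap between KO and WT pools. For the summed level of a list this held in 11 of 44 combinations of list, tissue and sex. Single genes were often separated too. KO pools lay wholly below WT pools for 5.21% of all genes in female livers and 8.09% in male livers. In hearts the shares were 6.58% in females and 5.46% in males, and in female hearts 5.57% lay wholly above. A chance rate for the list sums was not computed, so the count alone does not show an effect of genotype on the lists. In female hearts 2 of 4 atrial cardiomyocyte markers, Myl7 and Sln, fell (-0.65 and -0.71), and the summed level of the list was 12.73 to 13.12 in KO pools against 13.21 to 13.28 in WT pools. In male hearts that sum ran the other way, at 13.29 to 13.47 in KO pools against 13.09 to 13.28 in WT pools, while the reductions of Hadha, Hadhb and Acaa2 there were -0.79, -0.65 and -0.76. The sum of 4 adipocyte markers was 5.97 to 7.41 in female KO hearts against 7.65 to 8.27 in female WT hearts, with 0 of 4 markers passing, and the groups overlapped in males. The difference between 3' and 5' Gapdh probe sets was 0.08 to 0.12 in female KO hearts and 0.13 to 0.19 in female WT hearts. In male livers the sum of 4 red blood cell markers was 8.14 to 8.33 in KO pools against 7.66 to 7.81 in WT pools, with 0 of 4 passing, and in female hearts it was 8.87 to 9.52 in KO pools against 9.53 to 10.17 in WT pools. The macrophage sum was 6.31 to 6.41 in male KO hearts against 6.15 to 6.24 in male WT hearts, and the cardiomyocyte sum 15.81 to 15.84 in female KO hearts against 15.76 to 15.78 in female WT hearts. In female livers the hepatocyte sum was 15.48 to 15.52 in KO pools against 15.52 to 15.65 in WT pools. Adipocyte markers were higher by sum in KO livers, at 4.38 to 4.53 in female KO against 4.29 to 4.36 in female WT pools. In male livers the adipocyte sum was 4.42 to 4.46 in KO against 4.27 to 4.33 in WT pools. The atrial sum in male livers was 4.29 to 4.32 in KO against 4.197 to 4.25 in WT pools. In livers the median levels of both lists lay near the array median of about 2.45. There 0 of 4 markers of each list passed in limma, so these sums do not show a rise of fat or atrial transcripts. The part of the marker and quality differences in the results was not tested. Without heart pools 4 and 10 the changes in hearts over both sexes were -0.75 for Hadha, -0.61 for Hadhb, -0.36 for Hadh and -0.80 for Acaa2, and these 4 calls remained (largest adjusted p = 0.014, for Hadh, limma).

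Probe sets of one gene did not read alike in every case. Of the 11 probe sets, 4 fell in female livers and 3 in male livers, where 0.28% and 0.258% of all probe sets fell, and 6 fell in female hearts and 5 in male hearts, against 0.246% and 0.229%. In female livers the count was 2 when the female arrays were fitted alone or without pool 8, 9 or 11, and in male livers it was 0 without pool 5 and 1 without pool 2, 3 or 6. None rose. Of the 3 Hadhb probe sets, 1426522_at passed in all 4 comparisons and the other 2 in none. Probe set 1442732_at read 2.44 to 2.91 in livers, near the array median, and changed there by -0.06 in females and -0.09 in males. Probe set 1437172_x_at, a type that can bind related transcripts, changed by -0.33 in female livers, -0.64 in male livers, -0.33 in female hearts and -0.72 in male hearts, with wide SEs of 0.16 in liver and 0.15 in heart. With the mean of its 3 probe sets Hadhb fell by 0.40 in liver over both sexes, in place of 0.64, and by 0.38 in female livers, in place of 0.77, and still passed (adjusted p = 0.000752 and 0.02, limma). The Acaa2 probe sets 1428145_at, 1428146_s_at and 1455061_a_at each passed in both sexes of heart, with changes of -0.62 to -0.84. In male livers 1455061_a_at passed (-0.53, adjusted p = 0.0159, limma over all probe sets) where the other 2 did not (-0.30 and -0.28). For Hadh, 1460184_at changed by -0.42 in female hearts and -0.39 in male hearts, near the values of 1455972_x_at, and passed in females (adjusted p = 0.0432) but not in males (adjusted p = 0.0735, limma over all probe sets). In livers it changed by -0.18 in females and -0.18 in males and passed in neither (adjusted p = 0.945 and 0.627, limma over all probe sets). Its KO pools lay wholly below the WT pools in male livers and overlapped them in female livers. The third Hadh probe set, 1436756_x_at, read at most 2.46 in livers and 3.53 in hearts and passed nowhere. Hadha and Echs1 had 1 probe set each. The main probe set of Hadh, 1455972_x_at, is of the same type as 1437172_x_at, and that of Acaa2, 1428146_s_at, is an _s_at probe set.

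**Figure D3:**
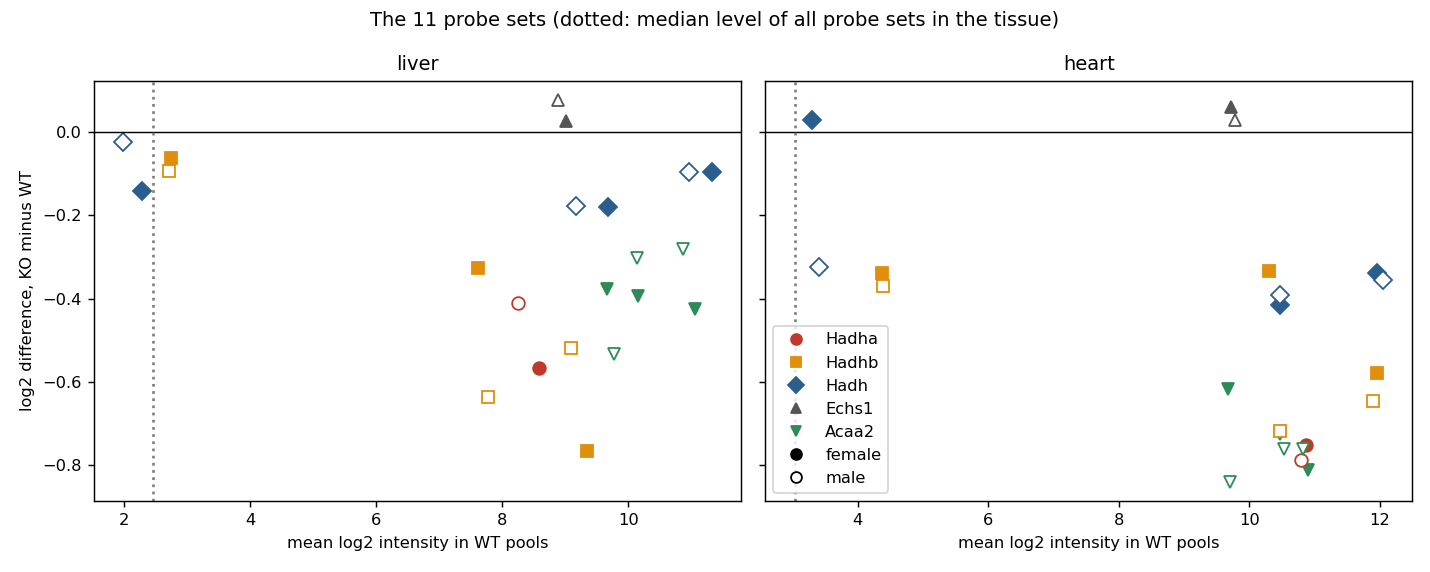
KO minus WT difference of log2 intensity (vertical) against mean log2 intensity in WT pools (horizontal) for each of the 11 probe sets, by tissue, with filled symbols for females, open symbols for males and a dotted line at the tissue's median level. The 3 Acaa2 probe sets lie below 0 in all cases, whereas the Hadhb probe set near the median level of livers changed there by -0.06 and -0.09.

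Members were also compared within each array, as the difference of log2 values of 2 genes, which is free of anything that scales a whole array. The 8 comparisons were 4 pairs of genes in each tissue, tested by exact two-sided permutation of the genotype labels within sex (6 KO and 6 WT pools, 400 arrangements, smallest possible p 0.005) and p-values adjusted over the 8. The 95% intervals of these differences come from a linear model with sex and genotype, not from the permutation. The main probe sets of both subunit genes of the trifunctional protein fell, but not equally. In heart Hadha minus Hadhb was lower in KO by 0.16 (-0.16, 95% interval -0.21 to -0.10, permutation adjusted p = 0.00667), and in liver it was higher in KO by 0.15 (0.07 to 0.24, permutation adjusted p = 0.015). Both values depended on the Hadhb probe set. With the mean of all probe sets the heart value was -0.27 (permutation adjusted p = 0.0133, in a range of 0.00667 to 0.0133 over the alternatives) and the liver value -0.088 (permutation adjusted p = 0.217, in a range of 0.00571 to 0.217). Hadha fell relative to Hadh by 0.39 in liver and 0.42 in heart, and relative to Echs1 by 0.54 in liver and 0.82 in heart, each at a permutation adjusted p of 0.00667 with every KO pool below every WT pool of its sex. The main probe sets of the thiolase genes Hadhb and Acaa2 also parted by tissue. Hadhb minus Acaa2 changed by -0.29 in liver (95% interval -0.41 to -0.17, permutation adjusted p = 0.0114) and by 0.17 in heart (0.10 to 0.25, permutation adjusted p = 0.00667), and the liver value became -0.015 with the mean of all probe sets (permutation adjusted p = 0.79, in a range of 0.00571 to 0.79).

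**Figure D4:**
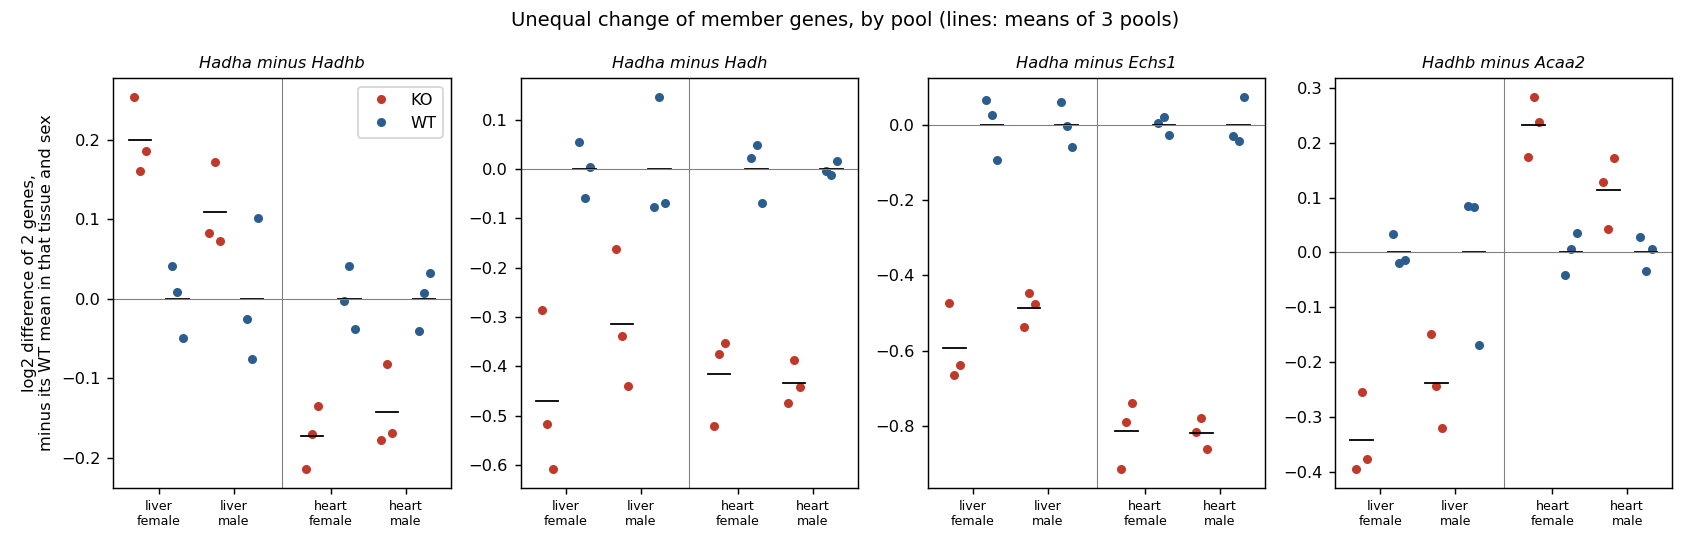
Within-array log2 differences between member genes, by pool (points) with group means (lines), for KO and WT of each sex in liver and heart, each set to 0 at its WT mean of that tissue and sex. Hadha minus Echs1 is lower in every KO pool than in the WT pools of its sex, while Hadha minus Hadhb is on average 0.15 higher in KO livers and changed by -0.16 in KO hearts.

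Whether liver and heart changed by different amounts was tested as the liver change minus the heart change, so a positive value means a smaller fall in liver. Acaa2 fell less in liver than in heart. The difference was 0.39 in females (SE 0.10, adjusted p = 0.0868, limma) and 0.48 in males (SE 0.10, adjusted p = 0.0198, limma), and over both sexes 0.43 (95% interval 0.29 to 0.58, adjusted p = 0.000674, limma). The contrast over both sexes was added after the values had been seen and held under all 33 alternatives at 0.37 to 0.45. The male call was lost in 10 of 21 alternatives, among them leaving out liver pool 1, 2, 4 or 6 or heart pool 2, 3 or 6, with adjusted p from 0.000784 to 0.129 in limma. In males Acaa2 was the 1 member of 5 that passed, where 0.247% of all genes were less lowered or higher in liver. In females 0 of 5 passed, against 0.698% of all genes in either direction. At an unadjusted p under 0.05 in limma there were 2 members in females, among 1350 of 18193 genes. Over both sexes 2 of 5 passed, against 0.649% of genes in that direction. The other was Hadha at 0.28 (SE 0.07, adjusted p = 0.041, limma), which was lost in 22 of 33 alternatives, 19 of them the removal of a single pool (adjusted p from 0.00811 to 0.147). For Hadhb the difference over both sexes was -0.03, with a 95% interval of -0.18 to 0.12, for Hadh 0.25 (adjusted p = 0.177, limma, but 0.0297 with a trended and robust variance, in a range of 0.0297 to 0.336 over the alternatives) and for Echs1 0.01 (-0.15 to 0.16).

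Sex did not detectably alter the effect of genotype on these genes. The difference between the KO effect in females and the one in males passed for 0 of 5 members in liver, where 0.066% of all genes passed, and for 0 of 5 in heart, where 0% did (limma). At an unadjusted p under 0.05 there were 1 member in liver and 0 in heart, among 870 and 820 genes. The 1 was Hadhb at -0.25 (95% interval -0.49 to -0.01, adjusted p = 0.994, limma). Between the sexes, all female WT livers exceeded all male WT livers for 4 of 5 members, against 10.9% of all genes. Hadha alone passed, at 8.58 ± 0.05 in female WT livers and 8.25 ± 0.01 in male WT livers (0.32, adjusted p = 0.0433, limma, 0.803% of all genes higher). That call was lost in 13 of 20 alternatives (adjusted p 0.0151 to 0.18), among them the removal of liver pool 1, 2, 3, 5, 7, 8, 9, 10 or 11. Hadh was higher in females by 0.36 in WT livers and by 0.36 in KO livers (adjusted p = 0.0721 and 0.0728, limma), and with 1460184_at as its probe set by 0.50 in each (adjusted p = 0.0152 and 0.0164, limma, in ranges of 0.00689 to 0.29 and 0.00656 to 0.243 over the alternatives). In hearts 0 of 5 members differed by sex in limma, against 0.0275% of all genes in WT and 0.011% in KO, and no member had an unadjusted p under 0.05 there. Pools of the sexes still did not overlap in WT hearts for Hadhb (0.06, female minus male), Acaa2 (0.07), Hadh (-0.10) and Echs1 (-0.06). In KO hearts the same held for Hadhb (0.13) and Hadh (-0.08). The share of all genes separated by sex in hearts is not given here.

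The neighbouring steps of the pathway showed where these genes stand. Among 5 measured genes of the carnitine shuttle, which carries long acyl groups into mitochondria, 3 fell in KO livers and 3 in KO hearts over both sexes. Slc25a20, the acylcarnitine carrier, changed by -1.97 in liver and -1.77 in heart, and Cpt2, which re-forms acyl-CoA inside, by -1.42 and -1.30. Of 8 acyl-CoA dehydrogenases 4 fell in liver and 3 in heart. The very-long-chain enzyme Acadvl changed by -1.25 in liver and -1.08 in heart, whereas Acadl changed by -1.32 in liver and -0.22 in heart and Acadm by -0.13 in liver and -0.52 in heart. For these 2 the liver change minus the heart change itself passed over both sexes (-1.11 and 0.38, adjusted p = 4.75e-09 and 0.00643, limma). Of 3 electron transfer flavoprotein genes 2 fell in each tissue, with Etfdh, which passes electrons on to ubiquinone, at -1.66 in liver and -1.04 in heart. Of 5 genes listed as auxiliary enzymes, the 4 that act on unsaturated chains fell in each tissue, and the other did not pass. Among the 4 were Eci2 (-1.93 in liver, -0.69 in heart), Ech1 (-1.82 and -1.68) and Decr1 (-0.62 and -1.73).

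The members' own changes were smaller than those of the leading genes of these lists. The median change over the 5 members was -0.35 in liver and -0.61 in heart, against list medians of -1.24 and -0.97 for the carnitine shuttle and -1.48 and -0.69 for the auxiliary enzymes. For the acyl-CoA dehydrogenases the medians were -0.23 and -0.17, and for the electron transfer flavoproteins -0.74 and -0.30. The 6 peroxisomal counterparts run the like steps in peroxisomes, except Decr2, which is the counterpart of the auxiliary enzyme Decr1. Of these, 3 fell in liver (Decr2 -3.21, Acaa1b -1.38 and Hsd17b4 -0.98) and 1 in heart (Hsd17b4 -0.41). Of 6 other genes of the hydratase and thiolase families, Acat1, the acetoacetyl-CoA thiolase, alone fell, by 0.42 in liver and 0.26 in heart, and the list medians were 0.04 and -0.09. None of 11 general mitochondrial genes, such as Cs and Vdac1, passed in either tissue in limma, with changes of -0.22 to 0.03 in liver and -0.20 to 0.10 in heart. Of 7 genes for cardiolipin, the inner-membrane lipid, none passed in liver and Lclat1 rose in heart (0.35, adjusted p = 0.0473, limma).

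**Figure D5:**
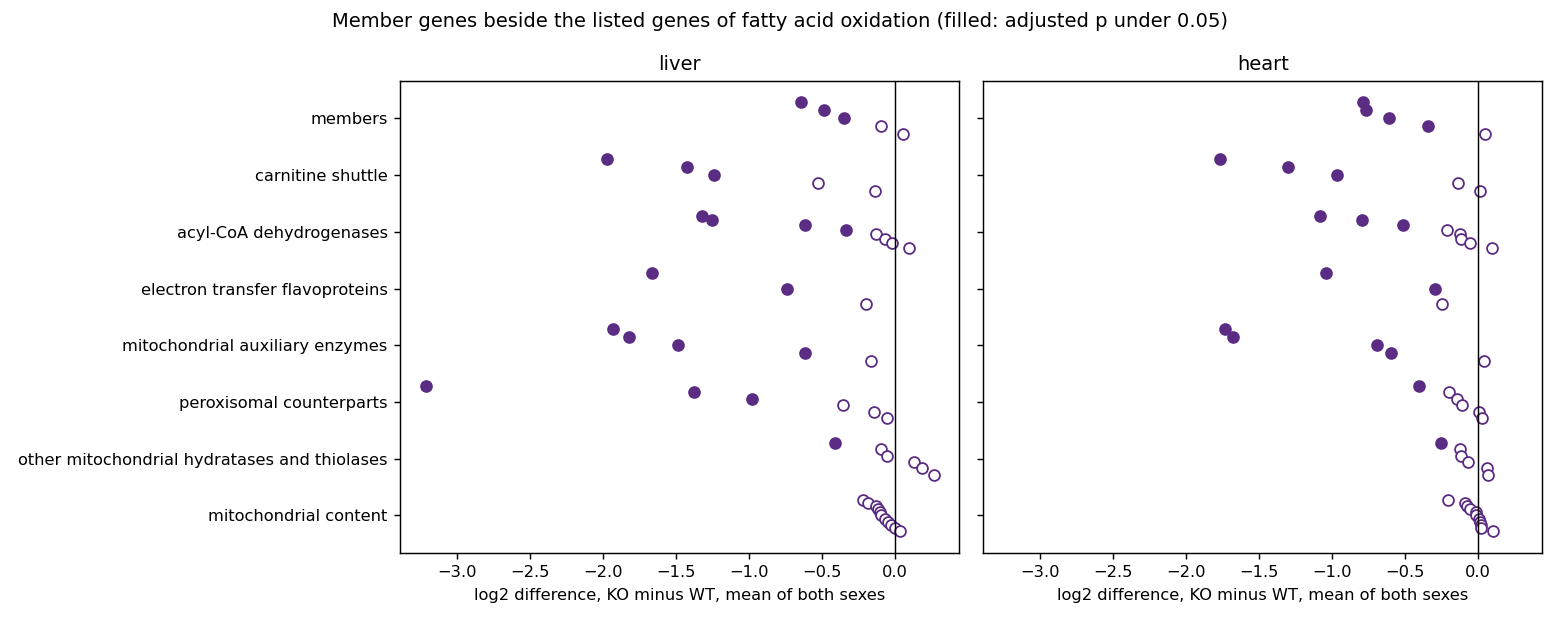
KO minus WT differences of log2 intensity over both sexes for the 5 members and the genes of the neighbouring lists, in liver and heart, each point a gene and filled where its adjusted p was under 0.05. The carnitine shuttle, acyl-CoA dehydrogenases, electron transfer flavoproteins and auxiliary enzymes reach lower than the members in both tissues, and the peroxisomal counterparts do so in liver. The 11 general mitochondrial genes stay between -0.22 and 0.10.

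The genes most alike to the average pattern of the 5 members were sought among 9091 genes above the median level in each tissue, as the smallest root mean square difference of centred log2 values over the 12 arrays. In heart these were Acadm (0.0564), Stom (0.0596), Eci1 (0.0643), Creg1 (0.0777) and Mlycd (0.0813), against a median of 0.285 over the candidates. Each of the 5 fell in KO hearts of both sexes. The search used the members' KO and WT values on these same arrays, so that fall followed largely from how the genes were picked. In liver they were Glud1 (0.0740), Dag1 (0.0775), Sdc4 (0.0829), Etfa (0.0895) and Mfsd12 (0.0965), against a median of 0.258, and none of these passed in KO against WT livers of either sex. Among the members Acaa2 lay closest to the average in liver (0.0639) and Hadhb in heart (0.0734), while Echs1 lay farthest in each tissue (0.190 in liver and 0.273 in heart).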

How the data were processed

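Total RNA of pooled livers and hearts was hybridised to 24 Affymetrix mouse arrays. The deposited values are log2 intensities made by the authors with RMA, per the submitters' processing notes; no version is stated in the sources used here. The values of each tissue share their own distribution, so each tissue was analysed within itself, and only differences entered the test across tissues. Probe sets were named from the platform annotation supplied with the data: 34945 of 45037 had 1 gene, 932 had several and 9160 had none, and only the first kind was used for genes. The probe set with the highest mean over the 24 arrays represented each of 18193 genes (1417 by an _s_at or _x_at probe set), and no filter on low values was applied. Genes of the comparison lists without such a probe set were not analysed here.

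Tests used R 4.3.3 with limma 3.58.1 (cell means, lmFit and eBayes, two-sided, Benjamini-Hochberg over all genes, threshold 0.05), with 12 arrays per tissue, or all 24 for the contrasts across tissues. The scripts were checked on simulated data. Precision is limited by the number of arrays. The labels do not describe separate extractions beyond the pools of 4 animals. Text names the members, Ppara, up to 4 genes of largest change among those past the threshold in each comparison list, and the 5 genes most alike per tissue; other genes named were markers that passed, examples of a list, and Acadl and Acadm in the tissue where they did not pass, chosen after their values were seen. Members, lists and tests were chosen with earlier results of these data known. Pool numbers are shared by liver and heart. Deviations of same-numbered pools correlated at -0.196 to 0.105 and above 0.1 in 1 of 12 cases. Such values cannot settle whether the pools held the same animals. Numbers were not taken as pairs in the main fits. Alternatives covered the arrays fitted, variance model, normalization, dim genes, probe sets, heart pools 4 and 10, a pool-number block and each pool left out.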

Additional observations from a re-analysis of the deposited data

Results flagged for a closer look

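3 differences between the tissues passed the test of the difference itself. The fall of Acaa2 in KO against WT males was smaller in liver than in heart by 0.48 on the log2 scale. Over both sexes, the fall of Acaa2 was smaller in liver by 0.43 and that of Hadha by 0.28. The male Acaa2 call was lost in 10 of 21 alternatives and the Hadha call in 22 of 33. The Acaa2 call over both sexes was lost in none, but that contrast was added after the values had been seen. All Acaa2 and Hadha KO pools lay below the WT pools of their sex in each tissue, so the difference is one of size and not of direction.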

How the results depend on the processing

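For KO against WT within a tissue over both sexes, all 39 counts of members called and all 195 single-gene values kept their direction and side of the threshold, and of 484 single-gene values of KO against WT other than Echs1 none changed sign. The members called in male livers were 1 in place of 2 with the compared arrays alone, and 3 with a trended and robust variance and with the mean of all probe sets. For female against male WT livers the count was 0 with the compared arrays alone, with centring on medians and with genes above the median level, and 2 with the mean of all probe sets and without _s_at and _x_at probe sets, in place of 1. For KO livers it was 1 in place of 0 with a trended and robust variance, with the mean of all probe sets and without _s_at and _x_at probe sets. Across tissues the count was 1 in place of 0 in females with a trended and robust variance. In males it was 2 in place of 1 with a trended and robust variance and with the mean of all probe sets, and 0 without _s_at and _x_at probe sets and without heart pools 4 and 10. Over both sexes it was 1 in place of 2 with centring and without heart pools 4 and 10, and 3 with a trended and robust variance. Of the 11 probe sets, 2 in place of 4 were called in female livers with the compared arrays alone. Leaving out each pool gave 0 to 2 members in male livers, 0 to 2 between the sexes in WT livers and 0 to 1 in KO livers, 0 to 1 across tissues in males and 1 to 2 over both sexes, and 2 to 4 probe sets in female livers, 0 to 3 in male livers, 4 to 6 in female hearts and 5 to 6 in male hearts.

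With the mean of all probe sets, liver Hadha minus Hadhb turned to -0.088 and Hadhb minus Acaa2 shrank to -0.015, and Hadhb turned to 0.031 for sex by genotype in liver, to 0.032 across tissues in females and to 0.10 over both sexes. Echs1 values near 0 changed sign. Across tissues over both sexes they were -0.0072 with renewed quantile normalization, -0.010 with centring, and -0.029 to 0.033 with pools left out. With pools left out they were -0.023 to 0.10 across tissues in males, -0.076 to 0.0022 in females, and -0.014 to 0.064 for KO against WT female livers. The cause was not tested.

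With the pool number as a replicate block, 0 members in males and 1 over both sexes passed across tissues, and Acaa2 in males had an adjusted p of 0.129 in limma. Pool numbers do not pair the samples by the labels, and 4 of 12 pools correlated best with their own number.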
